A study of Mus musculus with 8 samples.

Results

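The genes described here are 10 that mark the oligodendrocyte lineage and its precursor cells. They were taken by symbol from a set list that was chosen with earlier results of these data known. Shares of the 10 set beside those of all genes therefore describe the list and do not test it. All 10 were found once among the 46078 gene identifiers counted in each library. They comprise the transcription factors *Olig1*, *Olig2* and *Sox10*, the genes *Gpr17* and *Bcas1* of precursors that have begun to differentiate, the matrix and proteoglycan genes *Tnr*, *Cspg5* and *Ptprz1*, and the precursor-enriched genes *Lhfpl3* and *C1ql1*. Each passed the filter on low counts, so all 10 were among the 14736 genes tested.

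RNA came from stroke infarcts of 8 wild type C57BL/6J mice at 18 months of age, 4 given vehicle (sterile PBS) and 4 given HPβCD (labelled HPBCD, 2-hydroxypropyl-β-cyclodextrin), a cyclic sugar that binds cholesterol. Every animal had DH stroke, an occlusion of the distal middle cerebral artery followed by hypoxia, and tissue was collected at 7 weeks. Subcutaneous injections of vehicle or of HPβCD at 4 g/kg began 1 week after stroke and were given 3 times per week for 6 weeks. The mice were male, and the infarct was cut out by eye, so the amount of bordering cortex and white matter in a piece was not set.

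Oligodendrocyte precursor cells divide and migrate in the adult brain and differentiate into the oligodendrocytes that wrap axons in myelin. *Olig2* and *Sox10* act through the whole lineage, whereas *Gpr17* and *Bcas1* are switched on in cells leaving the precursor state. After injury, precursors can gather at the border of a lesion and some form new myelin. In bulk tissue, fewer cells of a type and less RNA per cell cannot be told apart.

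Library totals ranged from 16.6 M to 32.9 M gene counts, with vehicle animal 2 the deepest and the other 7 at most 19.4 M. Neuron transcripts set 2 vehicle libraries apart: in CPM (gene counts scaled to a common library total), 12 neuron markers summed to 9637 in vehicle animal 3 and 1556 in vehicle animal 1, against 23.1 to 133 in the other 6 libraries. The 10 genes and the lists are also described without these 2 animals. EdgeR called 287 (1.95%) of all genes tested at an adjusted p under 0.05.

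Start-site sequences (RefSeq, build GRCm38.p6, windows of 300 bases) were matched for 4 of the 10 genes, *Tnr*, *Lhfpl3*, *Ptprz1* and *Olig2*. Of these, 3 are shown because they hold a match to a motif of the factor families to which OLIG1, OLIG2 and SOX10 belong. Capitals mark the motif CANNTG, the E-box bound by basic helix-loop-helix factors such as OLIG1 and OLIG2, and ACAAAG or ACAATG, bound by SOX factors, on either strand. *Tnr* is at chr1:159523519-159523818 (plus strand), *Olig2* at chr16:91225300-91225599 (plus strand) and *Lhfpl3* at chr5:22745804-22746103 (plus strand).
Tnr: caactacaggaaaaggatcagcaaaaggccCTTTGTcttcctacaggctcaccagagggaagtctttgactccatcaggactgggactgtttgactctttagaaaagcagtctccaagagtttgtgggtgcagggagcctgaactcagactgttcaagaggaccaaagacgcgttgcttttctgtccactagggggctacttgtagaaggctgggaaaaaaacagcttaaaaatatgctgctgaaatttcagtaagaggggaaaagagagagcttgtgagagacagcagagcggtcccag
Olig2: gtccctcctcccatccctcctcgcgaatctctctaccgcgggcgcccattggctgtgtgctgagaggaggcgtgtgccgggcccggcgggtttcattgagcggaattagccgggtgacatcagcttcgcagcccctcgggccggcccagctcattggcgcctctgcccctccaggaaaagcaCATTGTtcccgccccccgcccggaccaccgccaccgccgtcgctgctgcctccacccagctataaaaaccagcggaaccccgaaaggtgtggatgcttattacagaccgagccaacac
Lhfpl3: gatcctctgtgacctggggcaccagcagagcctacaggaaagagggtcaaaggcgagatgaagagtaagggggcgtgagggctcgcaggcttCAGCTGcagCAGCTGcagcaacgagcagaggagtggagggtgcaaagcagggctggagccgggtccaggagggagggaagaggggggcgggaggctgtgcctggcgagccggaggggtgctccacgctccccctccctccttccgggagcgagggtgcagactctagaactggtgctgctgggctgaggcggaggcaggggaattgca

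The windows of *Tnr* and *Olig2* each held 1 SOX match and 0 E-boxes. That of *Lhfpl3* held 2 E-boxes, both of the form CAGCTG, and 0 SOX matches, and that of *Ptprz1* held neither. Of all 32851 windows of this length, 72.3% held an E-box and 28.6% a SOX match, and no 2 of the matches shown overlap. A match describes the letters only and is not evidence of binding.

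The question was whether these transcripts differ between HPβCD and vehicle infarcts. In 9 of the 10 genes the HPβCD mean was between 3.03-fold and 7.79-fold below the vehicle mean by the edgeR estimate, and *C1ql1* was the exception. All 10 estimates lay under 0 on the log2 scale, as did 54.1% of those of all tested genes. *Tnr* fell past the threshold by edgeR's quasi-likelihood test (adjusted p = 0.0499), and the other 9 did not pass. That is 1 of 10, where 0.774% of all tested genes were called lower and 1.17% higher. The median log2 difference (HPβCD relative to vehicle, as throughout) was -2.13 over the 10 genes and -0.05 over all tested genes. At an unadjusted p of 0.05, edgeR had 8 of the 10 lower, against 16% of all genes tested. DESeq2, the test used by the study, called 8 of the 10 lower, with *Bcas1* and *C1ql1* not passing, against 11.1% of the genes it tested. Limma-voom with sample quality weights also called 8, with *Cspg5* and *C1ql1* not passing, against 10.9% of all genes. In 5 of the 10 genes, all 4 HPβCD values lay below all 4 vehicle values, and this held in 8.03% of all tested genes.

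Without vehicle animals 1 and 3 the median over the 10 genes was -1.45, from 2 vehicle and 4 HPβCD animals. EdgeR called 0 of the 10 lower, where 0.856% of all genes were called lower in that fit, and 4 were lower at an unadjusted p under 0.05, against 9.48% of all genes. In that fit *Olig1* was at -1.45, *Olig2* at -1.15, *Sox10* at -1.31, *Gpr17* at -1.94 and *Bcas1* at -1.72 on the log2 scale. These 5 estimates stayed under 0 and lay nearer to it than over all animals.

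**Figure D1:**
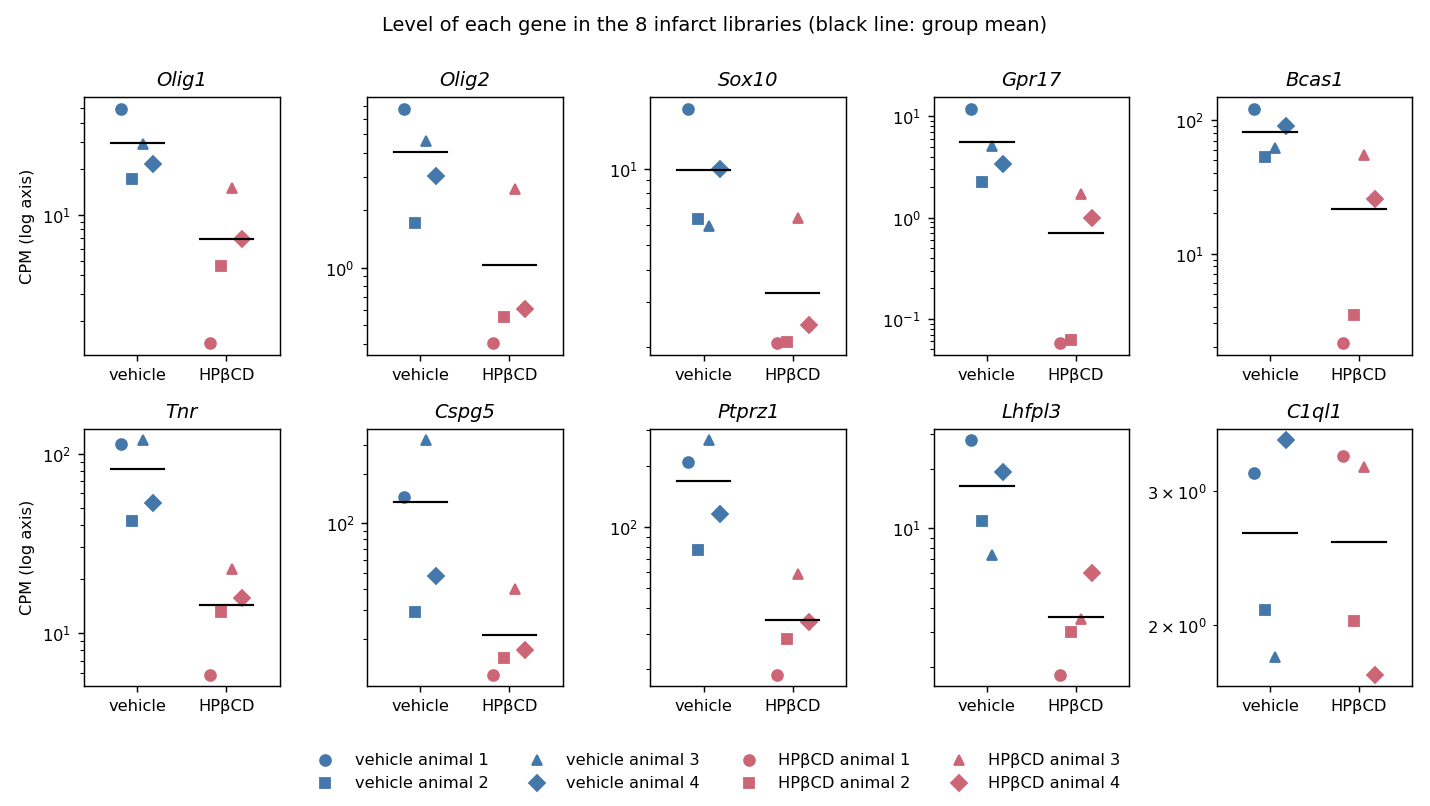
Each panel plots CPM on a log axis in the 4 vehicle and 4 HPβCD libraries for 1 gene, with a symbol for each animal number and a black line at the group mean. The groups do not overlap for *Olig1*, *Gpr17*, *Tnr*, *Ptprz1* and *Lhfpl3*, HPβCD animal 3 is the highest of its group in 8 panels, and the *C1ql1* groups lie on top of each other.

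*Olig1* (ENSMUSG00000046160, GRCm38 chromosome 16, 91269772 to 91271933, plus strand) and *Olig2* (ENSMUSG00000039830, chromosome 16, 91225457 to 91228677, plus strand) lie 41.1 kb apart and encode paired factors that specify the lineage. The study listed *Olig1* among membrane genes on the basis of these same libraries, so its direction is not independent evidence. *Olig1* was at 49.4, 17.2, 29.1 and 21.6 CPM in vehicle animals 1 to 4 and at 1.44, 4.60, 15.0 and 6.88 CPM in HPβCD animals 1 to 4. The groups did not overlap, though HPβCD animal 3 came within 1.15-fold of vehicle animal 2. Its log2 difference was -2.07 (SE 0.67; edgeR adjusted p = 0.102; DESeq2 adjusted p = 0.0073).

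*Olig2* was at 6.79, 1.72, 4.60 and 3.01 CPM in vehicle and at 0.402, 0.551, 2.58 and 0.611 CPM in HPβCD infarcts. Here HPβCD animal 3 exceeded vehicle animal 2, and the remaining HPβCD animals were below every vehicle animal. EdgeR put the log2 difference at -1.94 (SE 0.66; edgeR adjusted p = 0.107). Per kilobase of exon, *Olig1* was the more abundant of the pair in every library. The ratio of *Olig1* to *Olig2* per kilobase was 7.39 to 11.7 in vehicle and 4.18 to 13.2 in HPβCD libraries, so the ratios of the groups overlapped while both levels were lower in most HPβCD libraries.

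*Sox10* (ENSMUSG00000033006, chromosome 15, 79154908 to 79165240, minus strand) encodes a factor needed for myelin gene transcription. Its values were 17.1, 6.37, 5.93 and 10.004 CPM in vehicle animals and 2.07, 2.08, 6.39 and 2.44 CPM in HPβCD animals. HPβCD animal 3 reached the level of vehicle animals 2 and 3, and the other 3 HPβCD animals lay close together at a lower level. EdgeR put the log2 difference at -1.60 (SE 0.49; edgeR adjusted p = 0.0879; DESeq2 adjusted p = 0.0135).

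*Sox10* is also used by Schwann cells and melanocytes. The melanocyte enzyme gene *Tyr* had 0 counts in each of the 8 libraries. Summed over 6 Schwann cell markers, the level was 36.5 to 45.8 CPM in vehicle and 21.7 to 25.6 CPM in HPβCD libraries, most of it from *Egr2*, *Cdh19* and *Pou3f1*, and *Cdh19* was called lower (log2 difference -2.11, SE 0.38; edgeR adjusted p = 0.0483). Of the 5 Schwann cell markers tested, 3 had a log2 difference above 0 (*Prx* 0.53, *Egr2* 0.16 and *Ngfr* 0.05, none called), and the median was 0.05. Summed over 6 melanocyte markers it was 1.87 to 3.12 CPM in vehicle and 8.56 to 12.7 CPM in HPβCD libraries, and most of the HPβCD sum came from *Mlana*, which rose and was the 1 called of 3 tested (log2 difference 3.18, SE 0.28; edgeR adjusted p = 0.0222). Their part in the *Sox10* values was not tested.

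*Gpr17* (ENSMUSG00000052229, chromosome 18, 31942997 to 31949636, minus strand) encodes a receptor that holds precursors at an intermediate stage, and it had the largest estimated difference of the 10. It was at 11.9, 2.27, 5.08 and 3.39 CPM in vehicle infarcts and at 0.0575, 0.0613, 1.72 and 0.999 CPM in HPβCD infarcts. The 2 lowest values stand for 1 read each, and the 4 HPβCD libraries held 52 reads in all, against 436 in vehicle. The groups did not overlap, and the log2 difference was -2.96 (SE 0.98; edgeR adjusted p = 0.105; DESeq2 adjusted p = 0.00922). Exons of *Lims2* on the opposite strand cover 3.62% of its exon length and that gene held 452 counts over the 8 libraries against 488 for *Gpr17*, and the strand setting of the counting was not stated.

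*Bcas1* (ENSMUSG00000013523, chromosome 2, 170346991 to 170427845, minus strand) marks newly forming oligodendrocytes and stays on in myelin-forming cells. Vehicle infarcts were at 121, 53.0, 61.4 and 90.2 CPM. HPβCD infarcts were at 2.13, 3.49, 54.7 and 25.5 CPM, a 25.7-fold range within 1 group. HPβCD animal 3 was level with vehicle animal 2, while HPβCD animals 1 and 2 were far below both. A log2 difference of -1.92 had an SE of 0.96 and did not pass by edgeR (adjusted p = 0.238) or by DESeq2 (adjusted p = 0.0787). Limma-voom with quality weights, which gives less weight to libraries that deviate, put it at -3.95 and called it (adjusted p = 0.0153). Opposite-strand genes cover 12.6% of its exon length but held 13 counts against 8259 for *Bcas1*.

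*Tnr* (ENSMUSG00000015829, chromosome 1, 159523769 to 159931729, plus strand) encodes tenascin-R, a matrix glycoprotein made by oligodendrocyte lineage cells and some neurons and laid down around axons. It was at 113, 42.0, 119 and 52.8 CPM in vehicle animals 1 to 4 and at 5.86, 13.1, 22.6 and 15.7 CPM in HPβCD animals 1 to 4. All HPβCD values lay below all vehicle values, the nearest pair being 1.85-fold apart. The log2 difference was -2.51 (SE 0.49, 95% interval -3.64 to -1.38; edgeR adjusted p = 0.0499; DESeq2 adjusted p = 1.78e-05). The edgeR call was lost, with adjusted p from 0.0603 to 0.177, when vehicle animal 1, 3 or 4 or any 1 of the 4 HPβCD animals was left out. It was kept without vehicle animal 2 (adjusted p = 0.0408). Without both vehicle animals 1 and 3, which held the most *Tnr*, the estimate was -1.71 (edgeR adjusted p = 0.111).

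*Ptprz1* (ENSMUSG00000068748, chromosome 6, 22875502 to 23052916, plus strand) encodes a receptor phosphatase carried by precursors and astrocytes, whose secreted form is the proteoglycan phosphacan. It had the highest mean CPM of the 10 in both groups, at 209.9, 77.1, 268 and 117 in vehicle and 18.8, 28.1, 58.6 and 34.4 in HPβCD infarcts. The groups did not overlap. Its log2 difference of -2.26 (SE 0.48) was just outside the threshold by edgeR (adjusted p = 0.0545) and within it by DESeq2 (adjusted p = 7.66e-05). Without vehicle animal 2 edgeR called it (adjusted p = 0.0408), and without vehicle animals 1 and 3 together it was -1.45 (edgeR adjusted p = 0.131).

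*Cspg5* (ENSMUSG00000032482, chromosome 9, 110243783 to 110262576, plus strand) encodes neuroglycan C, a membrane proteoglycan of neurons and precursors. Its values were 144, 28.9, 319 and 47.9 CPM in vehicle and 12.1, 15.4, 39.9 and 17.2 CPM in HPβCD infarcts. The vehicle values spanned 11.04-fold, the widest range of any of the 10 in that group, with vehicle animals 3 and 1 on top as they were for neuron markers. HPβCD animal 3 exceeded vehicle animal 2. Over all animals the log2 difference was -2.67 (SE 0.81; edgeR adjusted p = 0.094; DESeq2 adjusted p = 0.00165), and it was -0.84 without vehicle animals 1 and 3 (edgeR adjusted p = 0.36). The part of the neuron transcripts in the *Cspg5* values was not tested further.

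*Lhfpl3* (ENSMUSG00000106379, chromosome 5, 22746059 to 23275597, plus strand) encodes a tetraspan membrane protein enriched in precursors. It was at 27.8, 10.8, 7.38 and 19.1 CPM in vehicle and at 1.84, 3.002, 3.49 and 5.94 CPM in HPβCD infarcts. The groups did not overlap, and unlike *Cspg5* it was lowest, within the vehicle group, in vehicle animal 3. Its log2 difference was -2.19 (SE 0.49; edgeR adjusted p = 0.0577; DESeq2 adjusted p = 0.000393). Leaving out vehicle animal 3 brought it past the threshold (log2 difference -2.42; edgeR adjusted p = 0.0342). With vehicle animals 1 and 3 both left out it was -2.05 (edgeR adjusted p = 0.0521), close to the value over all libraries. Of its exon length, 17.6% is covered on the opposite strand by *A930003O13Rik*, which had 4 to 17 counts per library.

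*C1ql1* (ENSMUSG00000045532, chromosome 11, 102939264 to 102946688, minus strand) encodes a secreted protein of the C1q family made by precursors and by some neurons. It was at 3.17, 2.10, 1.82 and 3.50 CPM in vehicle and at 3.33, 2.02, 3.22 and 1.72 CPM in HPβCD infarcts. The group ranges covered each other almost fully. EdgeR put the log2 difference at -0.04 (SE 0.32; edgeR adjusted p = 0.958), with a 95% interval from -0.77 to 0.70. The interval leaves room for a difference of that size in either direction, but it does not reach the estimates of the other 9. Between 30 and 73 counts per library stood behind these values.

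**Figure D2:**
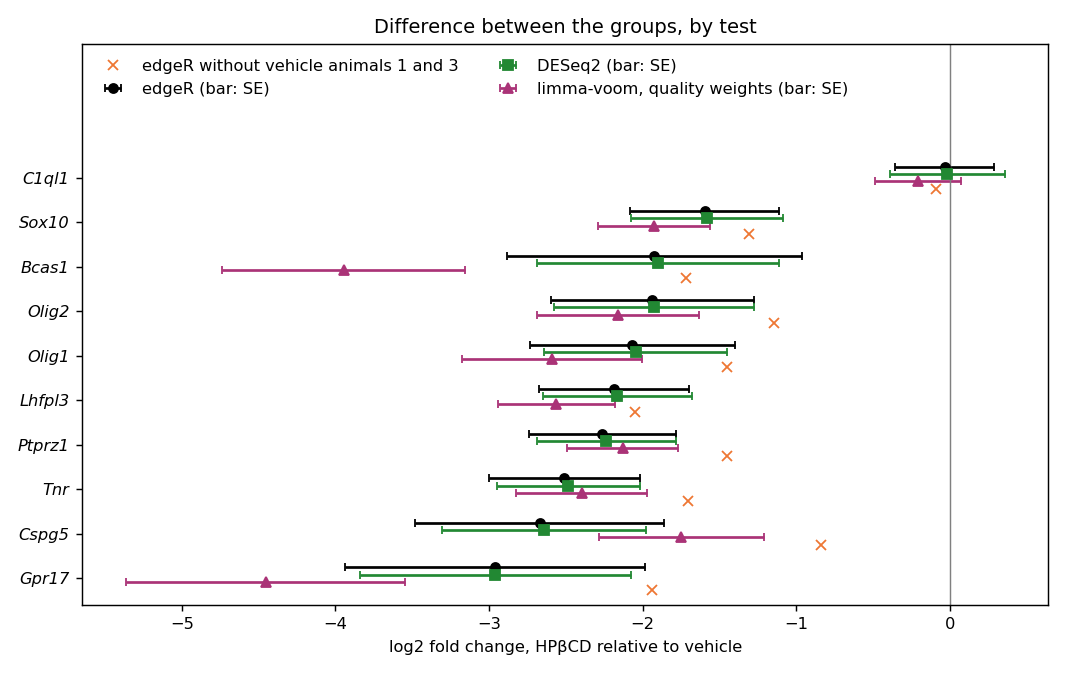
The horizontal axis gives the log2 difference of HPβCD relative to vehicle for each gene, with bars of 1 SE for edgeR, DESeq2 and limma-voom with quality weights, and a cross for edgeR without vehicle animals 1 and 3. Estimates of edgeR and DESeq2 nearly coincide, limma-voom differs most for *Bcas1* (-3.95) and *Gpr17* (-4.45), and the cross is nearer 0 than edgeR's value for 9 of the 10 genes, most of all for *Cspg5* (-0.84).

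The 8 animals took a similar order in most of the genes. Vehicle animal 1 was highest in 6 genes, vehicle animal 3 in 3 and vehicle animal 4 in 1. HPβCD animal 1 was lowest in 9 genes, *C1ql1* being the exception, where HPβCD animal 4 was lowest. Among HPβCD animals, number 3 stood nearest to the vehicle group. Leaving out HPβCD animal 3 raised the number of genes with separate groups from 5 to 9, against 12.9% of all genes in that comparison of 4 with 3 animals. Leaving out vehicle animal 2 raised it to 8, against 11.7% of all genes.

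Levels can be set against each other only per length, as CPM per kilobase of exon. In vehicle infarcts *Bcas1* was highest, at 21.6 ± 8.21 (SD, n = 4), followed by *Olig1* at 13.6 ± 6.59, *Cspg5* at 13.4 ± 13.2 and *Ptprz1* at 11.78 ± 6.09. *Gpr17* was lowest at 1.09 ± 0.8292. Neighbours in this order overlapped in every case. In HPβCD infarcts *Bcas1* again led, at 5.68 ± 6.52, and *Gpr17* was again last, at 0.136 ± 0.155. *C1ql1* was at 1.79 ± 0.552 in vehicle and 1.75 ± 0.558 in HPβCD infarcts, and it stood 8th and 5th in the order of the group means.

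**Figure D3:**
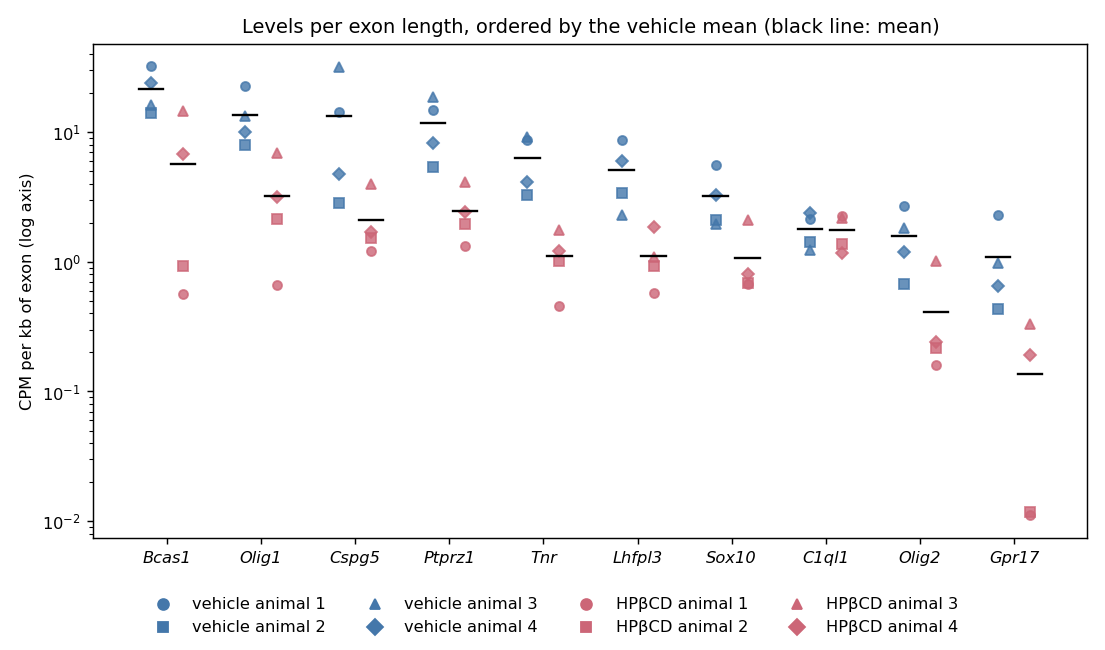
CPM per kilobase of exon (log axis) is plotted for each gene in each library, in the order of the vehicle means, with vehicle in blue, HPβCD in red and a black line at each mean. Neighbouring genes overlap in both groups, and *C1ql1* is at the same height in both while the means of the other 9 genes are lower in HPβCD.

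Other genes of the lineage were then described from lists. Of 12 further precursor genes, 10 had a log2 difference under 0, the median was -2.06, and edgeR called 2 lower and 0 higher. The called ones, named here because they passed, were *Sox6*, a factor that keeps cells in the precursor state (-1.91, SE 0.38; edgeR adjusted p = 0.0483), and *Pcdh15*, a protocadherin (-2.64, SE 0.53; edgeR adjusted p = 0.0488). The most widely used precursor markers did not share this direction. *Pdgfra*, the receptor for the mitogen PDGF-A, was at 156 to 300.1 CPM in vehicle and 412 to 461 CPM in HPβCD infarcts, with no overlap (log2 difference 0.87, SE 0.23; edgeR adjusted p = 0.069; DESeq2 adjusted p = 0.0083). *Cspg4*, which encodes the proteoglycan NG2, had a log2 difference of 0.32 (SE 0.23; edgeR adjusted p = 0.391). Of the 12, 8 were at an unadjusted p under 0.05 by edgeR, DESeq2 called 6 lower and 1 higher, and limma-voom called 8. Over all genes, 27.8% were at that unadjusted p, DESeq2 called 17% and limma-voom called 3232 of 14736, in either direction.

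*Pdgfra* and *Cspg4* are also made by fibroblasts and mural cells. The summed level of 7 fibroblast and mural markers was 2465 to 6225 CPM in vehicle and 8796 to 9731 CPM in HPβCD libraries, and edgeR called 3 of the 7 higher, *Col1a1*, *Col1a2* and *Pdgfrb*. Their part in the *Pdgfra* level was not tested. Over all 12 further precursor genes the summed level was 296 to 436 CPM in vehicle and 492 to 538 CPM in HPβCD libraries, higher without overlap. Without *Pdgfra* the direction turned, and the sum was 86.9 to 211 CPM in vehicle and 63.0 to 84.2 CPM in HPβCD libraries. *Matn4* and *Vcan*, which followed *Pdgfra* in mean CPM, had log2 differences of -0.64 (SE 0.68; edgeR adjusted p = 0.596) and -0.49 (SE 0.27; edgeR adjusted p = 0.277).

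Among 9 lineage regulators 8 were tested, 7 had a log2 difference under 0, and 1 was called lower, *Sox5*, a relative of *Sox6* (-1.83, SE 0.34; edgeR adjusted p = 0.0483). At an unadjusted p under 0.05 edgeR had 6 of the 8, while DESeq2 called 3 lower and limma-voom called 6. For all genes these shares were 27.8%, 17% and 3232 of 14736, in either direction. *Id2*, *Tcf7l2* and *Id4*, the most abundant, had values of -0.02, 0.55 and -1.92 (edgeR adjusted p = 0.957, 0.144 and 0.0624). The 6 genes of newly formed oligodendrocytes had a median of -0.32 and 0 calls by edgeR, with 1 at an unadjusted p under 0.05, 0 by DESeq2 and 1 by limma-voom. *Itpr2*, *Fyn* and *Rras2* were the most abundant of them, at -0.20, -0.49 and -0.25.

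The partners of *Tnr*, *Cspg5*, *Ptprz1* and *C1ql1* in the matrix and at the cell surface were then listed. Of 12, 10 had a log2 difference under 0 (median -1.97), and edgeR called 1 lower and 1 higher. At an unadjusted p under 0.05 edgeR had 9 of the 12, while DESeq2 called 7 lower and 1 higher and limma-voom called 7. The shares of all genes were 27.8%, 17% and 3232 of 14736, in either direction. *Hapln1*, which links hyaluronan to proteoglycans, fell (-2.10, SE 0.43; edgeR adjusted p = 0.0499). *Mdk*, which encodes the PTPRZ1 ligand midkine, rose from 42.0 ± 4.04 to 109 ± 27.1 CPM (SD, n = 4 each; log2 difference 1.38, SE 0.20; edgeR adjusted p = 0.0392). Pleiotrophin, encoded by *Ptn*, binds the same receptor and had a log2 difference of -0.72 (SE 0.16; edgeR adjusted p = 0.0545), with no overlap between the groups. *Cntn1*, an axonal and glial adhesion molecule that binds tenascin-R and PTPRZ1, had a log2 difference of -3.38 (SE 0.77; edgeR adjusted p = 0.0636).

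Mature myelin genes mark the end of the same lineage. Of 16 tested, 14 had a log2 difference under 0, and the median was -1.89. EdgeR called 0, with 3 at an unadjusted p under 0.05, while DESeq2 called 4 and limma-voom 14. Among all genes, 27.8% were at that unadjusted p, DESeq2 called 17% and limma-voom 3232 of 14736, in either direction. *Mbp*, which encodes a main protein of myelin, had a log2 difference of -1.65 (SE 0.88; edgeR adjusted p = 0.263). *Mbp* ranged from 699.7 to 1767 CPM in vehicle and was at 62.4, 67.1, 895 and 396 CPM in HPβCD animals 1 to 4, the same split of animals 1 and 2 from 3 and 4 that *Bcas1* showed. The split was not particular to the lineage, since the astrocyte gene *Gfap* was at 113, 117, 907 and 349 CPM in the same animals. *Cldn11*, a tight junction gene of myelin that other barrier cells also use, was at 0.20 (edgeR adjusted p = 0.718). For every 100 CPM of the myelin list, the 10 lineage and precursor genes amounted to 8.21 to 45.0 CPM in vehicle and 7.37 to 13.8 CPM in HPβCD libraries, so the ratio overlapped between the groups.

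Astrocyte markers were set beside the same genes because *Ptprz1* is used by astrocytes too. All 11 had a log2 difference under 0 (median -1.36). EdgeR called 0, with 8 at an unadjusted p under 0.05, while DESeq2 called 7 and limma-voom 9. The shares of all genes were 27.8%, 17% and 3232 of 14736 in that order, in either direction. Their sum was 3733 to 12418 CPM in vehicle and 1857 to 4367 CPM in HPβCD libraries. *Slc1a2*, *Glul* and *Gfap* were the most abundant, with log2 differences of -3.18, -0.18 and -1.15 (edgeR adjusted p = 0.0985, 0.723 and 0.395). For every 100 CPM of this list, the 10 genes amounted to 6.47 to 7.76 CPM in vehicle and 2.59 to 4.77 CPM in HPβCD libraries, without overlap. *Ptprz1* alone per 100 CPM of the astrocyte transporter gene *Slc1a3* was 37.4 to 49.1 in vehicle and 25.2 to 49.0 in HPβCD libraries, which overlapped. The part of astrocytes in the values of the 10 genes was not tested.

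Neuron and microglia markers complete the picture of the tissue. All 11 tested neuron markers had a log2 difference under 0. *Snap25*, *Camk2a* and *Syt1*, those with the highest mean CPM, were at -6.48, -6.39 and -5.85 (SEs 2.40, 2.04 and 2.15). EdgeR called 0, with 11 at an unadjusted p under 0.05, while DESeq2 called 10 and limma-voom 0. Among all genes these shares were 27.8%, 17% and 3232 of 14736, in either direction. Without vehicle animals 1 and 3 the values lay on both sides of 0: 5 of the 11 were under 0 and 6 above it, ranging from -0.66 to 0.56, with *Snap25* at 0.45, *Camk2a* at -0.39 and *Syt1* at 0.05. The 10 lineage and precursor genes summed to 704, 242, 821 and 368 CPM in vehicle animals 1 to 4, where neuron markers summed to 1556, 73.4, 9637 and 34.6 CPM. In HPβCD animals 1 to 4 the 10 genes summed to 48.1, 72.4, 208 and 111 CPM, and neuron markers to 25.4, 23.1, 133 and 36.3 CPM. HPβCD animal 3 was the highest of its group in both sums. The part of neurons in the values of the 10 genes was not tested. Microglia markers summed to 425 to 903 CPM in vehicle and 641 to 1037 CPM in HPβCD libraries, and 1 of 7, *Siglech*, was called lower. *Fcrls* and *Gpr34*, both abundant among them, had log2 differences of -0.23 and -0.88, neither called.

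The other lists also moved when vehicle animals 1 and 3 were left out. Medians became -0.94 for the further precursor genes, -1.48 for the lineage regulators, -0.29 for genes of newly formed oligodendrocytes, -0.94 for the matrix and surface partners, -1.57 for myelin genes and -0.94 for astrocyte markers. *Slc1a2* went to -1.31 and *Cntn1* to -1.62. The calls of *Sox6* (-1.39), *Pcdh15* (-2.13), *Sox5* (-1.20), *Hapln1* (-1.36), *Cdh19* (-1.96), *Siglech* (-1.79) and *Pdgfrb* (0.97) were lost, with edgeR adjusted p = 0.0951, 0.112, 0.0514, 0.096, 0.0673, 0.0889 and 0.0851 in that order. *Mdk* (1.297), *Col1a1* (1.36), *Col1a2* (1.21) and *Mlana* (3.52) were still called, and *Ptn* was now called lower (-0.88; edgeR adjusted p = 0.034).

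**Figure D4:**
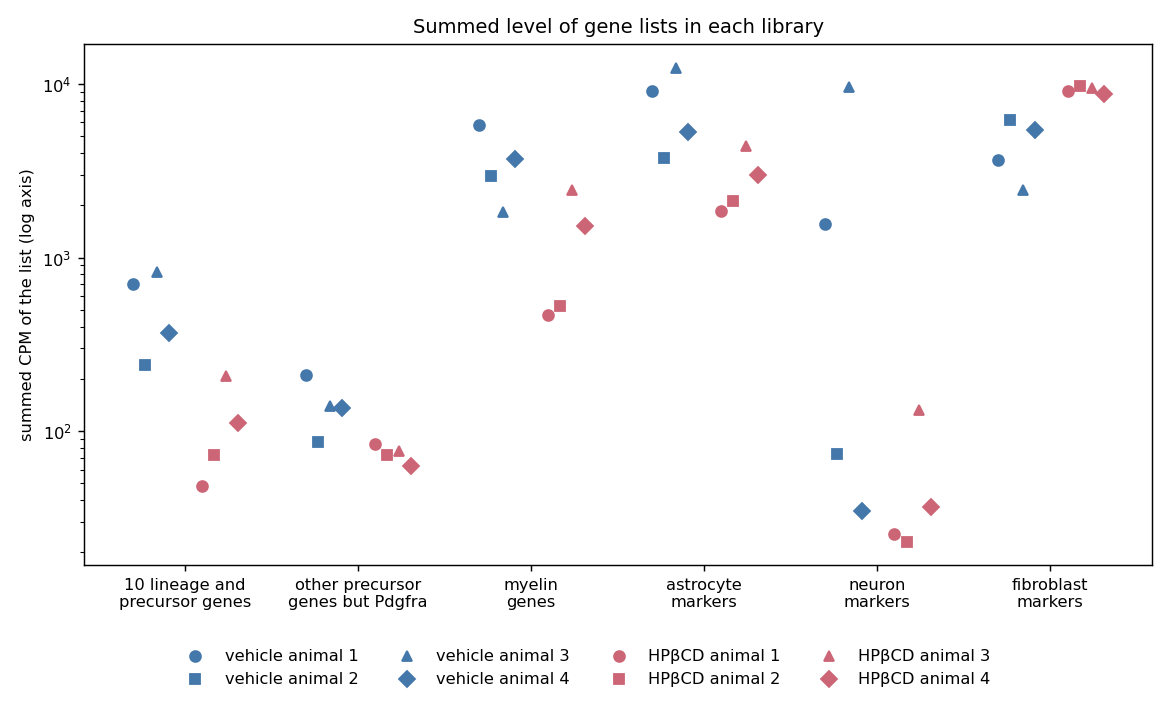
Summed CPM (log axis) of 6 gene lists is plotted in each library, vehicle in blue and HPβCD in red, with a symbol for each animal number. The 10 lineage and precursor genes and the other precursor genes without *Pdgfra* separate by group, lower in HPβCD. With *Pdgfra*, not plotted, the sum of the other precursor genes is higher in HPβCD (492 to 538 against 296 to 436 CPM). Myelin and astrocyte lists overlap at HPβCD animal 3, and neuron markers stand out in vehicle animals 1 and 3. Fibroblast markers are higher in HPβCD (8796 to 9731 CPM).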

How the data were processed

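Poly(A) RNA of 8 infarcts was sequenced from stranded libraries. Per the labels and methods, the authors trimmed reads with Trimmomatic 0.32, aligned them with STAR 2.5.2b to GRCm38 and counted them with htseq-count. The counting version, strand option and annotation release are not given in the sources used here. The deposited values are raw counts per Ensembl gene, with no normalization by the authors. The 5 lines of reads assigned to no gene (26.6% to 36.6% of a library) were left out.

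Symbols matched 45143 of 46078 identifiers. Coordinates and exon lengths are from GENCODE M21 (GRCm38). Start-site sequences are from RefSeq. The genes and lists were chosen with earlier results of these data known. Groups and animal numbers came from the labels, which give no batch. Between every pair of libraries the counts differed far beyond sampling noise (chi-square at least 18.9 times its degrees of freedom), so all 8 counted as separate animals.

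All genes kept by filterByExpr were fitted with edgeR 4.0.16 (robust quasi-likelihood, TMM, no covariate) in R 4.3.3, with Benjamini-Hochberg adjustment over 14736 genes and a threshold of 0.05. CPM used the TMM-scaled totals, and log2 CPM a prior count of 2. SEs were derived from the estimate and its F value. DESeq2 1.42.0 and limma 3.58.1 (voom with quality weights) were alternatives, beside other scaling, no filter, a replicate block and left-out animals. The procedure was tested on simulated data.

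The text names all 10 genes and, from each other list, the 3 most abundant members plus the defining markers *Pdgfra*, *Cspg4*, *Mbp*, *Snap25*, *Gfap* and *Mlana*. Some genes that this rule takes are not reported here. Others were named after their values were seen, since they were called or had 0 counts, or because they serve a ratio or overlap a gene.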

Additional observations from a re-analysis of the deposited data

Results flagged for a closer look

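Each of the 10 genes and each list sum was searched on the log2 CPM scale for 1 animal that stood apart within its group (Dixon's test). This was so in 2 of 44 sets of 4 values, where about 2.2 are expected by chance. HPβCD animal 3 had the highest *Sox10* of its group, at 2.70 log2 CPM against 1.12 to 1.35 in the others. The same animal had the highest sum of the other precursor genes, at 9.07 on the log2 scale against 8.94 to 8.95, a sum made up mostly of *Pdgfra*.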

How the results depend on the processing

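Each of 15 alternatives kept the log2 difference of 9 genes under 0. That of *C1ql1* changed sign in 4 of the 8 fits that left out 1 animal, ranging from -0.18 to 0.14. The median over the 10 genes ranged from -2.79 to -1.45 over the 15 alternatives. The number of the 10 called lower was 1 by edgeR and with RLE scaling, 8 by DESeq2, 8 by limma-voom, and 0 with library totals alone, with no low-count filter, with the replicate block or without vehicle animals 1 and 3 together. Leaving out 1 animal gave 0 to 2 calls. The 0 calls stand beside 4 to 9 of the 10 at an unadjusted p under 0.05 in the same fits. Over all genes, that threshold held in either direction for 4029 of 14736 with library totals alone and 4915 of 26720 with no low-count filter. It held for 2922 of 15059 without HPβCD animal 2 and 4216 of 14939 without vehicle animal 4. Without vehicle animals 1 and 3 together it held for 3236 of 15066. Over all genes, 287 calls became 2899 by DESeq2, 3232 by limma-voom, 11 with library totals alone, 9 with the replicate block and 0 to 629 without 1 animal. The number of the 10 with separate groups was 5, and 5 to 9 without 1 animal. Same-numbered animals did not deviate together throughout (correlations -0.26, 0.24, 0.33 and 0.10), so the numbers were not taken to pair them. The causes were not tested. With library totals alone the median of all genes was -0.13. Depth limits *Gpr17* and *Olig2* most, which had 52 and 75 reads over the 4 HPβCD libraries.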
